A study of Mus musculus with 10 samples.

Results

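The platelet-derived growth factor (PDGF) genes were followed in endothelium-enriched cells of mouse lung: the 4 ligand genes Pdgfa, Pdgfb, Pdgfc and Pdgfd and the 2 receptor genes Pdgfra and Pdgfrb. These 6 genes were taken by their symbols, with earlier results of these data known. They came out of the 24538 genes in the deposited count files and the 24460 genes in the FPKM table. All 6 were present in both, and 5 of them had counts high enough to be tested.

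PDGFs are secreted dimers that bind a pair of receptor tyrosine kinases, PDGFRα (Pdgfra) and PDGFRβ (Pdgfrb), which dimerise, phosphorylate each other and recruit SH2-domain proteins to start Ras, PI3-kinase and phospholipase C signalling. In blood vessels the best known axis is paracrine: endothelial cells secrete PDGF-B, and PDGFRβ on pericytes and smooth muscle cells receives it, which recruits these cells to the vessel wall. PDGF-A acts through PDGFRα, typically on fibroblasts and other mesenchymal cells, and in the developing lung it is needed for alveolar myofibroblasts, whereas PDGF-C and PDGF-D are secreted latent and must be cut by proteases before they can bind.

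The 10 RNA-seq libraries comprised 5 of normal lung and 5 of dissected metastases, each sorted and labelled CD31+/CD45-, that is, positive for an endothelial adhesion molecule and negative for the pan-leukocyte surface protein. All mice were wild-type C57BL6/J with a stated age of 8 to 10 weeks. The metastases grew from syngeneic mammary tumour cells, E0771-LG, given by tail vein to females aged 6 to 8 weeks. Each metastasis sample combined nodules smaller than 1 mm from 2 to 4 animals. Normal lungs shared the 30 min enzymatic digestion, with transcription inhibitors present, and the sort. The labels do not say how many mice made each normal lung library, or whether the 5 libraries of a group shared animals. All p-values therefore measure the spread between these libraries only.

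Counts assigned to genes ran from 41004704 to 79710581 per normal lung library and from 21677429 to 54266459 per metastasis library. Endothelial transcripts differed between the groups. Pecam1, which encodes CD31, had 1840 to 3922 counts-per-million (CPM) in normal lung and 145.6 to 1402 in the metastases, and the summed level of 19 pan-endothelial genes lay at 16820 to 31280 CPM and 1419 to 10440 CPM. By the median ratio over that list, metastasis libraries 1 to 5 had 39.1%, 22.4%, 19.3%, 9.02% and 6.03% of the normal mean, and 16 of the 19 genes fell, among them Cldn5 (log2 fold change -3.75) and Sox18 (-3.60) and the abundant Cdh5 (-2.18) and Ptprb (-2.04). Ptprc, which encodes CD45, had 8.05 to 26.1 CPM in normal lung and 84.0 to 154 in the metastases. In such bulk samples fewer endothelial cells and lower levels of the pan-endothelial transcripts per endothelial cell cannot be told apart. Libraries 1 and 2 also differed from 3 to 5 in their share of counts on the ribosomal RNA precursor Rn45s, 2.83% to 3.51% against 0.408% to 0.469% in normal lung and 1.45% to 4.61% against 0.647% to 1.24% in the metastases, so for the PDGF genes values within each set are given beside the pooled ones.

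Across all 11823 tested genes, 12.0% were higher and 8.22% lower in metastases, 20.2% in all (edgeR quasi-likelihood test, adjusted p under 0.05), and the median log2 fold change was 0.063. Of the 5 tested PDGF genes, 2 rose (Pdgfa and Pdgfra), 2 fell (Pdgfb and Pdgfd) and Pdgfrb did not pass the test. The fourth ligand, Pdgfc, was too low to test. In those 4 called genes no metastasis library overlapped with any normal lung library, a separation seen in 14.7% of all tested genes (8.50% with the metastases above and 6.17% with the metastases below). The values by library show this pattern, with normalised CPM used for comparisons of the same gene between libraries.

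**Figure D1:**
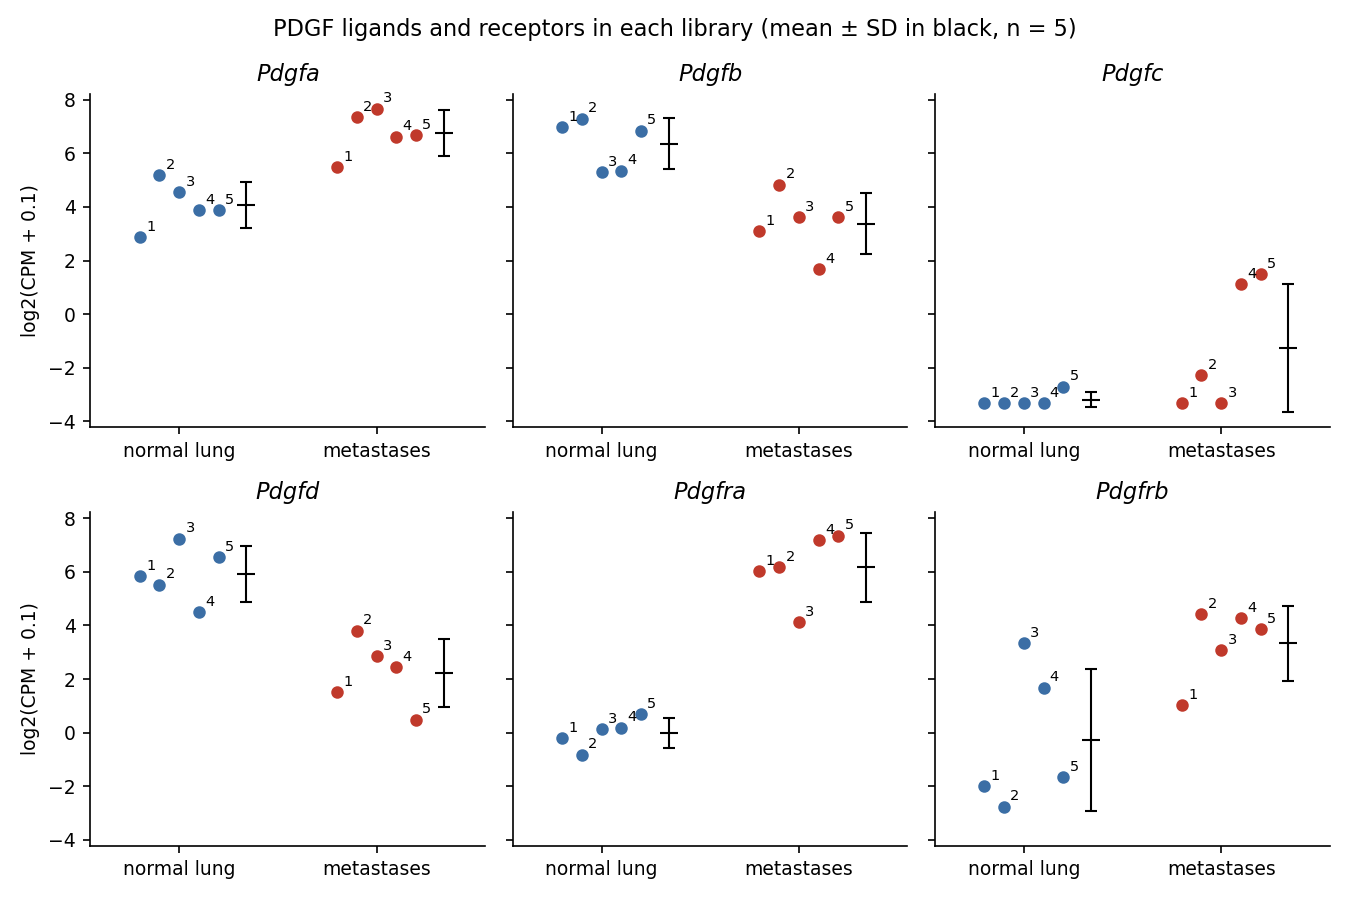
Level of each PDGF gene in each library as log2(CPM + 0.1), normal lung in blue and metastases in red, with the replicate number beside each point and the mean ± SD (n = 5) in black. The groups are separate for Pdgfa, Pdgfb, Pdgfd and Pdgfra, and overlap for Pdgfrb and Pdgfc.

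Pdgfa, the gene of the PDGF-A chain, lies on chromosome 5 (GRCm38, 138976014 to 138997370, minus strand). Its level was 7.27, 36.4, 23.5, 14.7 and 14.6 CPM in normal lung libraries 1 to 5 and 44.4, 162, 203, 98.8 and 102 CPM in metastasis libraries 1 to 5. The lowest metastasis library was still above the highest normal one, and library 1 was the lowest of each group. The mean rose from 19.3 ± 11.1 to 122 ± 61.6 CPM (SD, n = 5), a 6.33-fold increase (log2 fold change 2.66, SE 0.62, edgeR adjusted p = 0.0032). Within libraries 3 to 5 the log2 fold change was 2.92 (edgeR adjusted p = 0.00987), and within libraries 1 and 2 it was 2.26 with an adjusted p of 0.241.

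Sequence upstream of a RefSeq start of Pdgfa is shown because this gene rose in libraries whose endothelial transcripts fell. The window is the RefSeq promoter window in GRCm38.p6, of which the 157 bases that no GENCODE exon of Pdgfa covers are printed, chr5:138995038-138995194, minus strand; they lie within an intron of the longer Pdgfa transcripts.
Pdgfa: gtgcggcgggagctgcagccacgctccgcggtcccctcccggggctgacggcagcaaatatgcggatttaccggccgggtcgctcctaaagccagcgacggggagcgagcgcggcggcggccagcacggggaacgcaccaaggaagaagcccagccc
The full 250 bases upstream of that RefSeq start hold 28 CpG dinucleotides and 72.4% G and C, at the 94.0th percentile for base composition among 32851 such windows, whose medians are 6 CpG and 52.4%. Both of its GC boxes (GGGCGG, either strand, found in 32.7% of all windows) fall outside the printed stretch. RefSeq gives Pdgfa a further window, chr5:138994282-138994531, at whose end a GENCODE transcript starts, unlike the printed one. That window has 66.4% G and C (85.8th percentile), 19 CpG dinucleotides and 1 GC box.

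Pdgfb, the gene of the PDGF-B chain, is on chromosome 15 (79995874 to 80014977, minus strand). Normal lung libraries 1 to 5 had 126, 157, 39.6, 40.9 and 115 CPM, and metastasis libraries 1 to 5 had 8.43, 28.4, 12.3, 3.14 and 12.2 CPM. All metastasis libraries were below all normal ones. The mean fell from 95.5 ± 52.8 to 12.9 ± 9.42 CPM (SD, n = 5), 7.41-fold (log2 fold change -2.89, SE 0.70, edgeR adjusted p = 0.0046). The decrease was -2.92 within libraries 1 and 2 (edgeR adjusted p = 0.0867) and -2.83 within libraries 3 to 5 (adjusted p = 0.0488).

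Pdgfd, the gene of a ligand that acts mainly through PDGFRβ, is on chromosome 9 (6168584 to 6378850, plus strand) and had the largest decrease of the 5 tested PDGF genes. Its level was 56.8, 46.0, 151, 22.6 and 93.2 CPM in the normal lung libraries and 2.78, 13.9, 7.20, 5.37 and 1.30 CPM in the metastasis libraries. Again the groups were separate. The mean fell from 73.9 ± 50.1 to 6.11 ± 4.92 CPM (SD, n = 5), 12.1-fold (log2 fold change -3.59, SE 0.81, edgeR adjusted p = 0.0026). Within libraries 1 and 2 the value was -2.60 (edgeR adjusted p = 0.308) and within libraries 3 to 5 it was -4.28 (adjusted p = 0.0129). Ddi1, a gene on the opposite strand inside the Pdgfd locus, had a log2 fold change of -1.01 and did not pass the test (edgeR adjusted p = 0.653); whether counting used the strand is not given in the sources used here.

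The start of Pdgfd differs from that of Pdgfa in base composition and in carrying a TATA box. The printed 127 bases are chr9:6168236-6168362, plus strand, GRCm38.p6, from the RefSeq window up to the start of the RefSeq gene, with the TATAAA in capitals 37 bases before their end.
Pdgfd: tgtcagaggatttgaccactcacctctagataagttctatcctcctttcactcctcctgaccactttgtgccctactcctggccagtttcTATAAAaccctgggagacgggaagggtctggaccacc
TATAAA occurs on either strand in 12.4% of all windows, and the 250-base window of Pdgfd holds 3 CpG dinucleotides and 53.6% G and C. These letters describe the 2 starts and say nothing of which factors bind there.

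Pdgfc, the gene of a ligand that like PDGF-A acts through PDGFRα, is on chromosome 3 (81036416 to 81214040, plus strand) and was near 0 in most libraries. Normal lung libraries 1 to 5 had 0, 0, 0, 0 and 2 counts, and metastasis libraries 1 to 5 had 0, 7, 0, 72 and 77 counts. At these depths 3 counts correspond to 0.0359 to 0.081 CPM in normal lung and 0.0459 to 0.149 CPM in the metastases, covering counting error only. Metastasis libraries 4 and 5 thus had 2.09 and 2.71 CPM while libraries 1 and 3 had none, and the gene did not enter the test.

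Levels of different genes were compared per transcript length, as FPKM (fragments scaled by transcript length and library depth), with no test. In normal lung, Pdgfb was at 59.2 ± 31.2, Pdgfa at 39.6 ± 19.3 and Pdgfd at 38.1 ± 27.3 FPKM (SD, n = 5), a spread within which the order of the 3 ligands cannot be set. Pdgfb was the highest ligand in libraries 1, 2 and 5, Pdgfd in library 3 and Pdgfa in library 4. In the metastases Pdgfa was the highest ligand in all 5 libraries, with 99.9, 256, 492, 212 and 225 FPKM, against 6.96, 13, 11.4, 1.49 and 9.19 FPKM for Pdgfb and 0.595 to 5.19 FPKM for Pdgfd. Pdgfa made up 13%, 34.6%, 33.2%, 49% and 21.8% of the summed ligand FPKM in normal lung and 92.1%, 93.7%, 96.7%, 97.7% and 95.8% in the metastases. Its lowest share in the metastases was above its highest share in normal lung. The share of Pdgfb was 43.7% ± 16.4 in normal lung and 3.60% ± 2.22 in the metastases, and that of Pdgfd 26.0% ± 12.5 and 1.12% ± 0.53 (SD, n = 5). Pdgfc, at 0 FPKM in all normal lung libraries, had 0.0497, 0.643 and 0.115 FPKM in metastasis libraries 2, 4 and 5. By mean FPKM, Pdgfa was at the 94th percentile of all genes in the table in normal lung and the 99.5th in the metastases, Pdgfb at the 96.4th and the 74.9th, and Pdgfd at the 93.8th and the 62.7th.

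**Figure D2:**
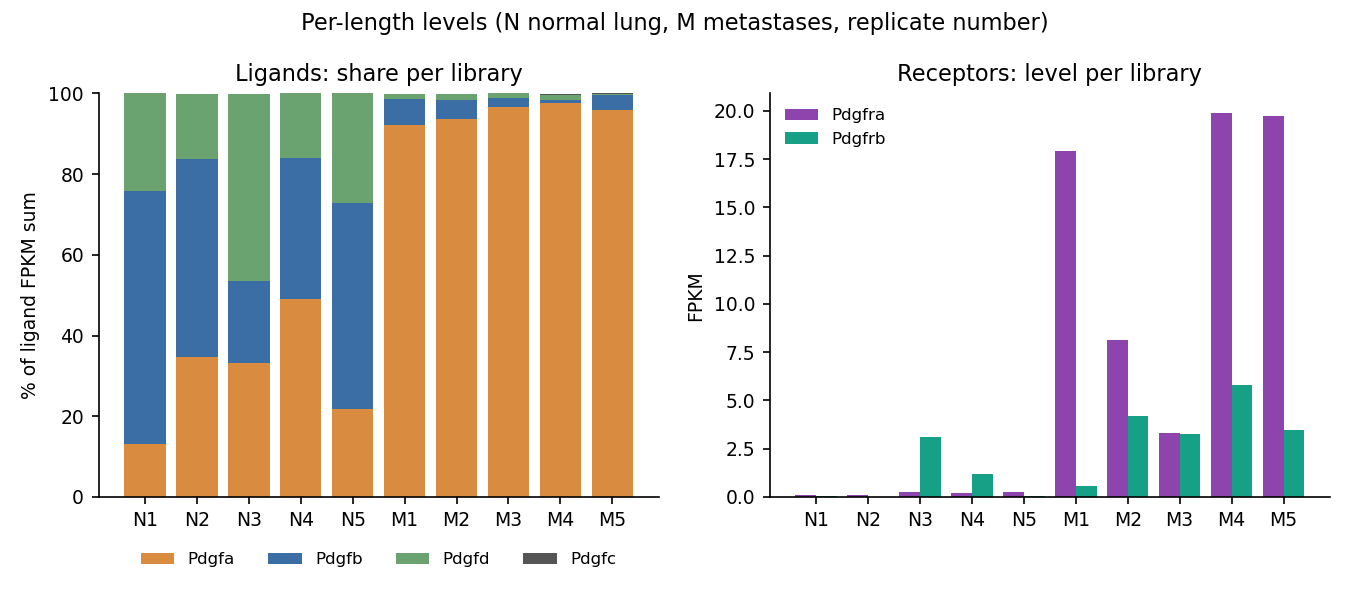
Left, share of each ligand in the summed FPKM of the 4 PDGF ligands in each library (N normal lung, M metastases); right, FPKM of the 2 receptors in the same libraries. Pdgfa takes 13% to 49% of the ligand sum in normal lung and 92.1% to 97.7% in the metastases, and Pdgfra reaches 3.33 to 19.9 FPKM in metastases from at most 0.239 in normal lung.

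Among the receptors, Pdgfra showed the largest change of the tested PDGF genes. PDGFRα, its product, binds PDGF-A and PDGF-C and marks many fibroblasts. The gene is on chromosome 5 (75152292 to 75198215, plus strand). Normal lung libraries 1 to 5 had 0.766, 0.466, 0.988, 1.04 and 1.51 CPM, from 50, 39, 42, 40 and 56 counts, and metastasis libraries 1 to 5 had 64.7, 72.0, 17.5, 145 and 163 CPM, from 1913, 4703, 352, 4994 and 4637 counts. Every metastasis library was above the highest normal one, with libraries 4 and 5 highest and library 3 lowest. The mean rose from 0.955 ± 0.386 to 92.5 ± 60.4 CPM (SD, n = 5), 96.9-fold (log2 fold change 6.60, SE 0.85, edgeR adjusted p = 6.66e-06). The normal lung counts were low and even, and what part reads carried over between libraries had in them was not tested, so the normal level and the fold are uncertain to that extent. Scaled by the pan-endothelial genes, the log2 fold change was 9.84, where the median of all tested genes was 2.91. The increase was 6.81 within libraries 1 and 2 (edgeR adjusted p = 0.00838), 6.51 within libraries 3 to 5 (adjusted p = 0.00176) and 5.71 without metastasis libraries 4 and 5 (adjusted p = 0.00123).

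The window upstream of Pdgfra is shown as that of the gene with the largest change. It is chr5:75152001-75152250, plus strand, GRCm38.p6, ahead of every GENCODE transcript of the gene, though the RefSeq gene starts farther upstream.
Pdgfra: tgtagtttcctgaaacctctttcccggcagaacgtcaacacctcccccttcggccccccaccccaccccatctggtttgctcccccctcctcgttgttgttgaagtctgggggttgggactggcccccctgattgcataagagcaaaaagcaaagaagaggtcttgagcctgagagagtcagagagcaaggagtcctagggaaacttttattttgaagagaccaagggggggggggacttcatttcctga
It holds 54.4% G and C and 4 CpG dinucleotides, and, on either strand, neither of the motifs named above nor CCAAT (present in 33.8% of all windows).

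Pdgfrb, the gene of the receptor for PDGF-B and PDGF-D and a standard pericyte marker, is on chromosome 18 (61045150 to 61085061, plus strand). Its level was 0.153, 0.0478, 9.95, 3.10 and 0.216 CPM in normal lung libraries 1 to 5 and 1.93, 21.4, 8.34, 19.2 and 14.6 CPM in metastasis libraries 1 to 5. The groups overlapped, since normal lung library 3 was above metastasis libraries 1 and 3, and the normal lung libraries spread from 4 to 423 counts. The means were 2.69 ± 4.26 and 13.1 ± 7.98 CPM (SD, n = 5), with a log2 fold change of 2.28 (SE 1.33, edgeR adjusted p = 0.255). Without normal lung library 3 the log2 fold change was 3.87 (edgeR adjusted p = 0.0834), so that library moved the fold change by more than any other and the gene still did not pass. It was 6.86 within libraries 1 and 2 (edgeR adjusted p = 0.151) and 1.65 within libraries 3 to 5 (adjusted p = 0.457). With libraries scaled by the pan-endothelial genes it passed, at 5.19 (edgeR adjusted p = 0.00414). That scaling moved the median of all 11823 tested genes to 2.91, with 7253 called higher and 16 lower. Per length, Pdgfra had 0.0923 to 0.239 FPKM in normal lung and 17.9, 8.13, 3.33, 19.9 and 19.7 FPKM in metastasis libraries 1 to 5, and Pdgfrb had 0.0197 to 3.08 FPKM and 0.586, 4.20, 3.24, 5.82 and 3.49 FPKM. In metastasis library 3 both receptors stood at nearly the same level. The summed FPKM of both receptors was 1.05 ± 1.37 in normal lung and 17.3 ± 7.86 in the metastases (SD, n = 5), and Pdgfra made up 7.22% to 82.5% of it in normal lung and 50.6% to 96.8% in the metastases. Over all 6 genes the order in the metastases was Pdgfa (257 ± 144 FPKM), Pdgfra (13.8 ± 7.60), Pdgfb (8.40 ± 4.48), Pdgfrb (3.47 ± 1.90), Pdgfd (2.89 ± 1.86) and Pdgfc (0.162 ± 0.273), given as mean ± SD (n = 5). From Pdgfra to Pdgfd the ranges of mean ± SD of neighbours in this order overlapped, so the order of such neighbours cannot be set.

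Because the levels of the pan-endothelial genes differed so much between the groups, each gene was also set against a list of cell type genes in the same library. This was log2(CPM + 0.5) minus the mean of the list, compared with an exact two-sided permutation test over all 252 splits of 5 against 5. The smallest p that this design allows is 0.00794, and p-values were adjusted over the 6 comparisons. Relative to the pan-endothelial genes, Pdgfb was at -2.79 ± 0.84 in normal lung and -3.13 ± 1.13 in the metastases (SD, n = 5), a difference of -0.34 (exact permutation p = 0.587), and the groups overlapped. Pdgfd was at -3.21 ± 1.20 and -4.19 ± 1.17, a difference of -0.98 (exact permutation p = 0.23, adjusted p = 0.276), also with overlap. No change of either ligand relative to the list was detected with 5 libraries a group. When libraries were scaled by that list, the log2 fold changes of Pdgfb and Pdgfd were -0.076 (edgeR adjusted p = 0.945) and -1.12 (adjusted p = 0.344).

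Relative to the pan-endothelial genes, Pdgfa was at -6.78, -4.06, -4.33, -5.12 and -4.86 in normal lung libraries 1 to 5 and at -2.25, 0.21, 0.94, 0.87 and 1.18 in metastasis libraries 1 to 5. The groups were separate, with a difference of 5.22 (exact permutation p = 0.00794, adjusted p = 0.0159). That difference includes the fall of the list, whose 19 genes had a median log2 fold change of -2.21. A gene that did not fall would tend to separate the groups on this measure. Scaling by the list gave Pdgfa a log2 fold change of 5.50 (edgeR adjusted p = 5.92e-06), where the median of all tested genes was 2.91. Pdgfc gave a difference of 3.62 on this scale (exact permutation p = 0.00794, adjusted p = 0.0159), but with 0 to 2 counts in normal lung and none in metastasis libraries 1 and 3 that difference there is the fall of the list itself.

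Pdgfra was set against 12 fibroblast genes and Pdgfrb against 14 pericyte genes. Pdgfra was at 0.35 ± 0.40 in normal lung and 4.37 ± 1.33 in the metastases (SD, n = 5), a difference of 4.02 with no overlap (exact permutation p = 0.00794, adjusted p = 0.0159). Against the 6 fibroblast genes that were high enough to be tested, the difference was 2.46 (exact permutation p = 0.0159, adjusted p = 0.0238). Full separation would have given an exact permutation p of 0.00794, so against these 6 genes the groups overlapped. Pdgfrb was at -0.35 ± 1.51 and 2.93 ± 1.21, a difference of 3.27 (exact permutation p = 0.0159, adjusted p = 0.0238), and 4.17 against the 5 testable pericyte genes. Those 5 genes had a median log2 fold change of -1.27, so both differences include their fall. Pdgfrb itself did not pass (2.28, edgeR adjusted p = 0.255). The groups overlapped, as normal lung library 3 was above metastasis library 1. Since 6 of the 12 fibroblast and 9 of the 14 pericyte genes were too low to test, both list means are pulled toward the pseudocount by those genes.

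**Figure D3:**
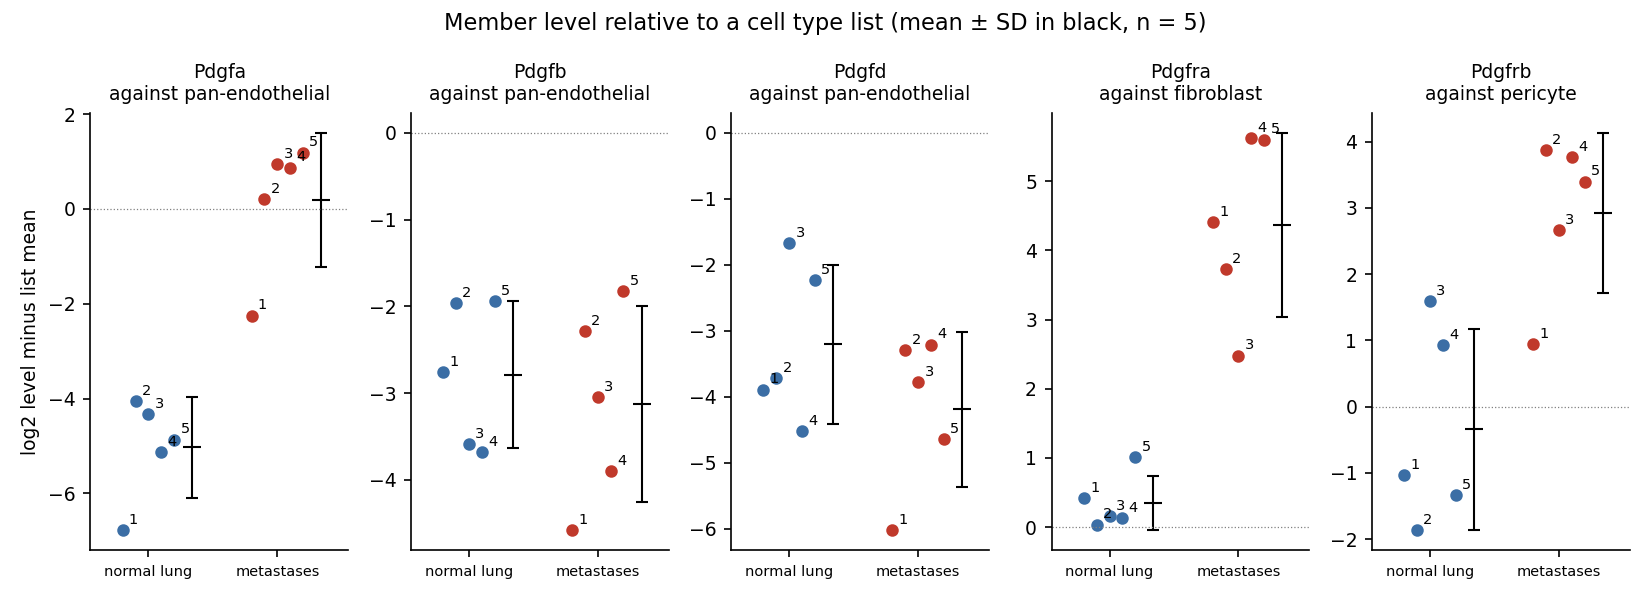
Level of 5 PDGF genes relative to a cell type list in the same library, as log2(CPM + 0.5) of the gene minus the list mean, normal lung in blue, metastases in red, replicate numbers beside the points and mean ± SD (n = 5) in black; each panel has its own scale. Pdgfa and Pdgfra separate the groups, while Pdgfb, Pdgfd and Pdgfrb overlap. The separation of Pdgfra holds against all 12 fibroblast genes, as drawn, but not against the 6 that were tested.

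Markers of other cell types were measured in the same libraries, where 12.0% of all tested genes were higher and 8.22% lower. Of the 12 fibroblast genes, 6 were tested and 5 rose, namely Mfap4 (log2 fold change 7.09), Dcn (5.57) and the collagen chain genes Col1a1 (4.57), Col3a1 (3.87) and, named after its values were seen, Col1a2 (3.60). The median of the 6 was 4.22. Without metastasis library 1 Mfap4 lost its call (log2 fold change 3.59, edgeR adjusted p = 0.124), and in libraries 3 to 5 alone 2 of the fibroblast genes were called, with Col1a1 at 3.26 (adjusted p = 0.0595) and Col1a2 at 2.72 (adjusted p = 0.121). Dcn lost its call in libraries 1 and 2 alone (5.27, edgeR adjusted p = 0.0925). The summed fibroblast level was 9.01 to 58.7 CPM in normal lung and 382, 845, 478, 192 and 256 CPM in metastasis libraries 1 to 5, with Tcf21 and Col13a1, a pair of resident lung fibroblast genes, at 0 in all 10 libraries. The 2 libraries with the most Pdgfra, metastasis 4 and 5, had the lowest summed fibroblast level of the 5, but single genes of the list were ordered otherwise: Dcn was at 4.30 CPM in library 1 and 13.4 and 33.6 CPM in libraries 4 and 5, and Col1a1 at 15.4, 20.1 and 78.6 CPM. Of the 14 pericyte genes, 5 were tested, none rose and 1 fell, Rgs5 (log2 fold change -5.84, edgeR adjusted p = 0.0191, lost without normal lung library 2 at adjusted p = 0.07 and in either library set alone at 0.192 and 0.083). Their summed level was 243 to 318.8 CPM in normal lung and 52.6 to 192.7 CPM in the metastases, most of it Mcam, which endothelial cells also express (log2 fold change -1.27, edgeR adjusted p = 0.0582), followed by Gucy1a3 (-2.19, adjusted p = 0.0822). Mcam passed without metastasis library 1 (-1.70, edgeR adjusted p = 0.0115) and Gucy1a3 without metastasis library 3 (-2.77, adjusted p = 0.0304). With DESeq2, 1 of the pericyte genes was called higher and 2 were called lower. Cspg4, the gene of the pericyte proteoglycan NG2, was at 0 in every metastasis library and Ndufa4l2 in all 10. Of the 8 smooth muscle genes, 3 were tested and none passed with edgeR, with 0 at an unadjusted p under 0.05, while DESeq2 called 1 of the list higher; the most abundant, Myh11 and Acta2, had log2 fold changes of -2.46 (edgeR adjusted p = 0.172) and 1.79 (adjusted p = 0.451), and the list summed to 14.1 to 39.0 CPM and 4.62 to 87.0 CPM.

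Some leukocyte, platelet and epithelial genes also differed, where 12.0% of all tested genes were higher and 8.22% lower. Of 10 macrophage genes, 7 were tested and 4 rose, namely C1qb (log2 fold change 6.47), Fcgr1 (5.37), Itgam (5.31) and Lyz2 (3.93); the sum was 46.9 to 211 CPM in normal lung and 922 to 1813 CPM in the metastases. Of 7 platelet genes, 6 were tested and 2 rose, Pf4 (3.95) and Ppbp (3.27), with sums of 182.6 to 930.3 and 671.1 to 12140 CPM. Pf4 lost its call without metastasis library 3 (log2 fold change 2.52, edgeR adjusted p = 0.0712). Named after their values were seen, Itga2b (1.56, edgeR adjusted p = 0.417), Gp9 (2.65, adjusted p = 0.186), Gp1bb (2.08, adjusted p = 0.323) and Gp6 (-0.34, adjusted p = 0.902) did not pass. Itga2b and Gp9 passed without normal lung library 2 (edgeR adjusted p = 0.031 and 0.0423). Platelets are a classical store of PDGF protein. Metastasis library 1, with the lowest Pdgfa of its group, had the highest platelet sum, of which Ppbp was 11900 CPM, whereas Pf4 was highest in library 3 (342 CPM, against 55.6 in library 1), where Pdgfa was highest. Of 10 epithelial genes, 5 were tested, 1 rose and 1 fell. Cdh1 (log2 fold change 0.95, edgeR adjusted p = 0.685) and Sftpc (0.061, adjusted p = 0.984) did not pass. Among those too low to test, mean CPM in normal lung and metastases was 1.96 and 0.914 for Epcam, 0.287 and 1.86 for Krt18, and 0.129 and 4.77 for Krt19. These 5 genes were named after their values were seen. Krt8, a keratin of simple epithelia and of many carcinomas, had 0.214, 0.203, 0.306, 0.339 and 0.162 CPM in normal lung and 23.3, 24.3, 4.61, 15.2 and 42.2 CPM in the metastases (log2 fold change 6.47, edgeR adjusted p = 0.000497). Metastasis library 3 was the lowest for Krt8 and Pdgfra and, among genes described below, for Lrp1, Src, Pax9 and Hoxc10. In metastasis library 4 Krt8 was below libraries 1 and 2, while Pdgfra was above both. The normal lung values of Krt8 rest on 6 to 17 counts a library, in which the part of carried-over reads was not tested. Scgb1a1, a club cell secretory gene, fell (-5.74, edgeR adjusted p = 0.00245) but in libraries 1 and 2 alone had a log2 fold change of 0.20, and Sftpb, a surfactant protein gene, did not pass (2.91, adjusted p = 0.123) except without normal lung library 2 (4.52, adjusted p = 0.0339). In libraries 1 and 2 alone the calls of Fcgr1 (6.78, edgeR adjusted p = 0.0746), C1qb (6.35, adjusted p = 0.143), Pf4 (3.36, adjusted p = 0.159) and Krt8 (6.84, adjusted p = 0.0873) were lost, and in libraries 3 to 5 alone those of Fcgr1 (4.33, adjusted p = 0.0597) and Pf4 (4.23, adjusted p = 0.0532). What part fibroblasts, platelets, tumour cells or leukocytes had in the levels of Pdgfa and Pdgfra was not tested.

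**Figure D4:**
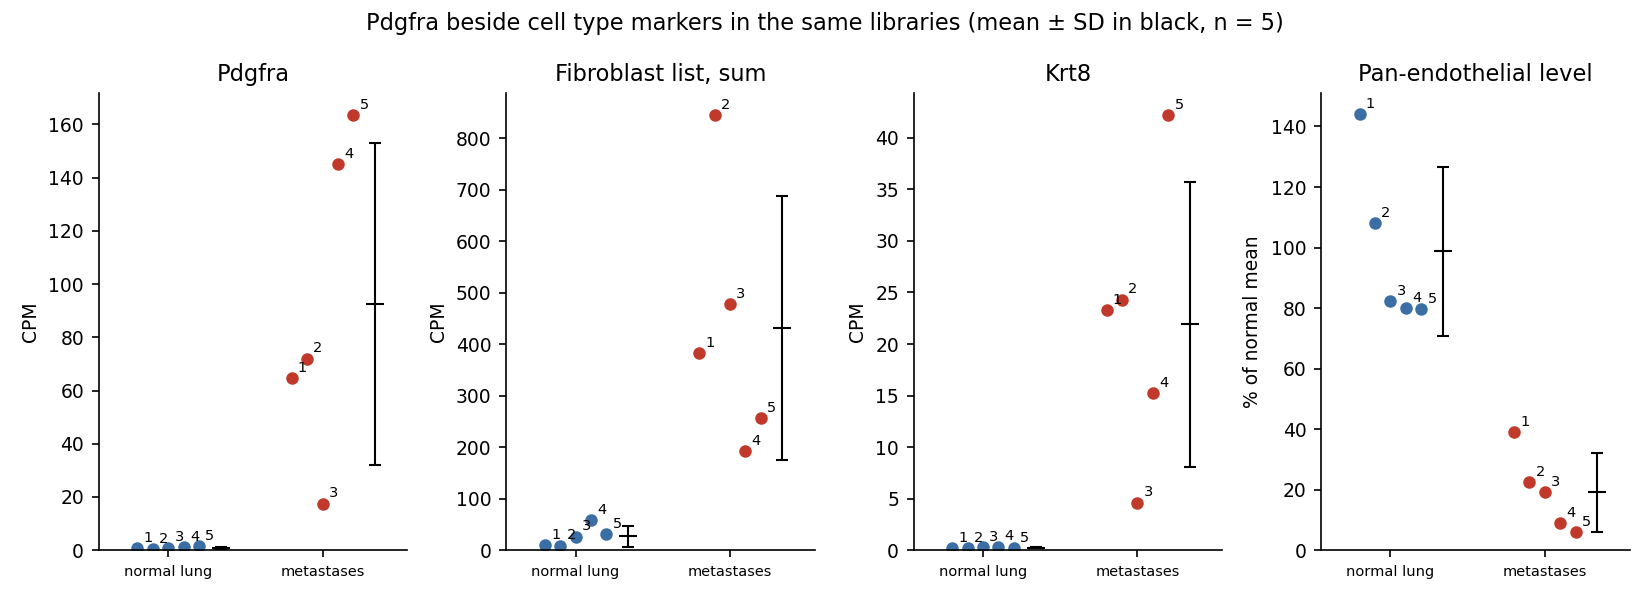
Pdgfra, the summed fibroblast list and Krt8 in CPM, and the pan-endothelial level as percent of the normal mean, in each normal lung (blue) and metastasis (red) library, with replicate numbers and mean ± SD (n = 5) in black. Of the 5 epithelial genes tested, Krt8 is the 1 that rose. Pdgfra is highest in metastasis libraries 4 and 5, where the summed fibroblast level (192 and 256 CPM) and the pan-endothelial level (9.02% and 6.03%) are the lowest of the metastases, although Dcn and Col1a1 of that list are lowest in library 1 (4.30 and 15.4 CPM).

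The genes whose log2 CPM was most similar to each PDGF gene were ranked by Pearson's r over the 10 libraries, which share the 2 groups. Genes with predicted-gene symbols (Gm number, Rik or LOC) were left out of the ranking. Closest to Pdgfra were the transcription factor genes Hoxc10 (r = 0.991) and Pax9 (r = 0.989) and Col6a1, a collagen VI chain (r = 0.989); Pax9 had 0.49 to 0.891 CPM in normal lung and 46.8, 126, 14.2, 70.6 and 114 CPM in the metastases. The normal lung counts of Pax9 (28 to 54) and Hoxc10 (16 to 32) were low and even too. Closest to Pdgfa were Eif1a (0.969), a translation initiation factor gene, Mars (0.968), a methionyl-tRNA synthetase gene, and Spcs3 (0.957), a signal peptidase subunit gene. Pdgfb was closest to Amotl2 (0.971), an angiomotin family gene, S1pr4 (0.952), a sphingosine 1-phosphate receptor gene, and Ccm2l (0.95), and Pdgfd to Paqr8 (0.96), Foxn3 (0.945), a forkhead gene, and Dpp4 (0.941), a cell surface peptidase gene. Pdgfrb was closest to the transporter gene Slc16a6 (0.939), Zc3hav1l (0.92) and the small nucleolar RNA Snora21 (0.913). Once the group means were removed, r of the deviations among the 10 pairs of tested PDGF genes lay between -0.524 (Pdgfb and Pdgfrb) and 0.376 (Pdgfa and Pdgfd). The same pairs had r between -0.872 and 0.785 before that.

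Genes that release, bind or present PDGFs were examined next, from a list of 12 of which 9 were tested. Lrp1, a large endocytic receptor that associates with PDGFRβ, rose, and Nrp1, a coreceptor that binds PDGFs and VEGF, and Pcsk5, a proprotein convertase, fell; the median log2 fold change of the list was 0.47 against 0.063 over all tested genes, and 11.1% were higher and 22.2% lower against 12.0% and 8.22%. Lrp1 had 4.10, 2.63, 4.38, 3.73 and 4.08 CPM in normal lung and 424, 411, 173, 226 and 248 CPM in the metastases, with no overlap. Its mean rose from 3.78 ± 0.68 to 296 ± 114 CPM (SD, n = 5), 78.3-fold (log2 fold change 6.29, SE 0.53, edgeR adjusted p = 1.34e-08). As for Pdgfra, the normal lung counts were even, 143 to 268, and the part of carried-over reads in them was not tested. Nrp1 was at 2890, 2310, 4220, 3020 and 3990 CPM and at 689, 223, 2190, 335 and 146 CPM (log2 fold change -2.19, edgeR adjusted p = 0.00503). Metastasis library 3 stood close below the lowest normal library for Nrp1, and under pan-endothelial scaling its log2 fold change was 0.18. Pcsk5 fell by 2.87 on the log2 scale (edgeR adjusted p = 0.0366), a call lost without any 1 of 6 libraries (normal lung 3 and 4, metastasis 2, 3, 4 and 5), with adjusted p up to 0.083. Plau and Plat, whose proteases urokinase and tissue plasminogen activator cut PDGF-D and PDGF-C, had log2 fold changes of 0.47 (edgeR adjusted p = 0.697) and 0.50 (adjusted p = 0.776). Furin, a convertase that cleaves PDGF-A and PDGF-B precursors, had 1.08 (edgeR adjusted p = 0.464), and the matricellular PDGF-B binding protein gene Sparc had 0.91 (adjusted p = 0.0741).

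Of 36 genes that carry the signal from the receptors, 35 were tested, 2 rose, 4 fell and 29 did not pass, with a median log2 fold change of -0.14. These are 5.71% higher and 11.4% lower, against 12.0% and 8.22% of all tested genes. Src, a kinase that docks on activated PDGF receptors, had 0.138 to 0.306 CPM in normal lung and 52.5, 14.8, 2.73, 12.5 and 6.31 CPM in metastasis libraries 1 to 5. It rose with a log2 fold change of 6.43 (SE 1.32, edgeR adjusted p = 0.00121), from 7 to 15 counts in each normal lung library, where the part of carried-over reads was not tested. Map2k1, which encodes the kinase MEK1, rose by 2.53 (edgeR adjusted p = 0.0131) and lost its call without metastasis library 2 (2.04, adjusted p = 0.062). Plcg1, the phospholipase Cγ1 gene, had 207, 263, 136, 135 and 78.6 CPM in normal lung and 23.7, 18.3, 15.7, 7.61 and 10.9 CPM in the metastases. It fell by 3.42 on the log2 scale (SE 0.57, edgeR adjusted p = 0.000141) with no overlap. Mapk3, the gene of ERK1, fell by 1.89 (edgeR adjusted p = 0.0115). Vav3 and Pik3cb, named after their values were seen, fell by 1.82 (edgeR adjusted p = 0.0354) and 1.43 (adjusted p = 0.0362); they were called in 4 and 2 of the 10 fits that left out 1 library, with adjusted p up to 0.084 and 0.0888 in those fits.

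Of 12 genes that restrain the receptors, 11 were tested, 3 rose and none fell, with a median log2 fold change of 0.44. The 27.3% that rose is 3 genes, against 12.0% of all tested genes. Acp1, a low molecular weight phosphatase gene, had 10.2, 24.0, 15.5, 11.8 and 17.0 CPM in normal lung and 69.2, 54.5, 301, 67.6 and 161 CPM in the metastases (log2 fold change 3.06, SE 0.63, edgeR adjusted p = 0.00115). Ptprj, which encodes a receptor phosphatase that dephosphorylates PDGFRβ, rose by 2.61 (edgeR adjusted p = 0.0043). Cblb, a ubiquitin ligase gene named after its values were seen, rose by 1.63 (edgeR adjusted p = 0.00266), from 108 to 223 CPM in normal lung to 351 to 591 CPM in the metastases. Among 7 genes of the other class III receptor tyrosine kinases and their ligands, 5 were tested, none rose and Kit, the stem cell factor receptor gene, fell (-2.39, edgeR adjusted p = 0.00252). Kit lies 376701 bases from Pdgfra on chromosome 5, followed by the VEGF receptor gene Kdr at 734612 bases, named after its values were seen, which fell too (-2.71, edgeR adjusted p = 8.78e-05). Of these 3 neighbouring receptor genes 1 rose and the others fell. Kdr belongs to the pan-endothelial list, which fell as a whole. Under pan-endothelial scaling the log2 fold changes of Kit and Kdr were -0.22 and -0.16, where the median of all tested genes was 2.91. Csf1r, which lies 15537 bases from Pdgfrb, had a log2 fold change of 2.03 (edgeR adjusted p = 0.287).

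The counts in these 4 lists depended on the scaling and on the libraries. In libraries 3 to 5 alone Src (4.90, edgeR adjusted p = 0.0513), Map2k1 (0.95, adjusted p = 0.52), Mapk3 (-1.97, adjusted p = 0.056), Ptprj (1.87, adjusted p = 0.0535) and Nrp1 (-2.09, adjusted p = 0.0751) lost their calls, as did Vav3 (-2.16, adjusted p = 0.0584). In libraries 1 and 2 alone Acp1 (1.87, edgeR adjusted p = 0.42), Cblb (1.74, adjusted p = 0.11), Mapk3 (-1.82, adjusted p = 0.145) and Kit (-1.39, adjusted p = 0.218) lost theirs, as did Pcsk5 (-0.997, adjusted p = 0.771), Pik3cb (-0.48, adjusted p = 0.774) and Vav3 (-1.21, adjusted p = 0.502). Under pan-endothelial scaling, which moved the median of all tested genes from 0.063 to 2.91, the genes called higher and lower were 5 and 0 for release and coreceptors, 26 and 0 for signal transduction, 9 and 0 for restraint, and 3 and 0 for the other class III genes. Without metastasis libraries 4 and 5 the counts with the usual scaling were 1 and 1, 3 and 1, 3 and 0, and 0 and 1 in the same order.

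**Figure D5:**
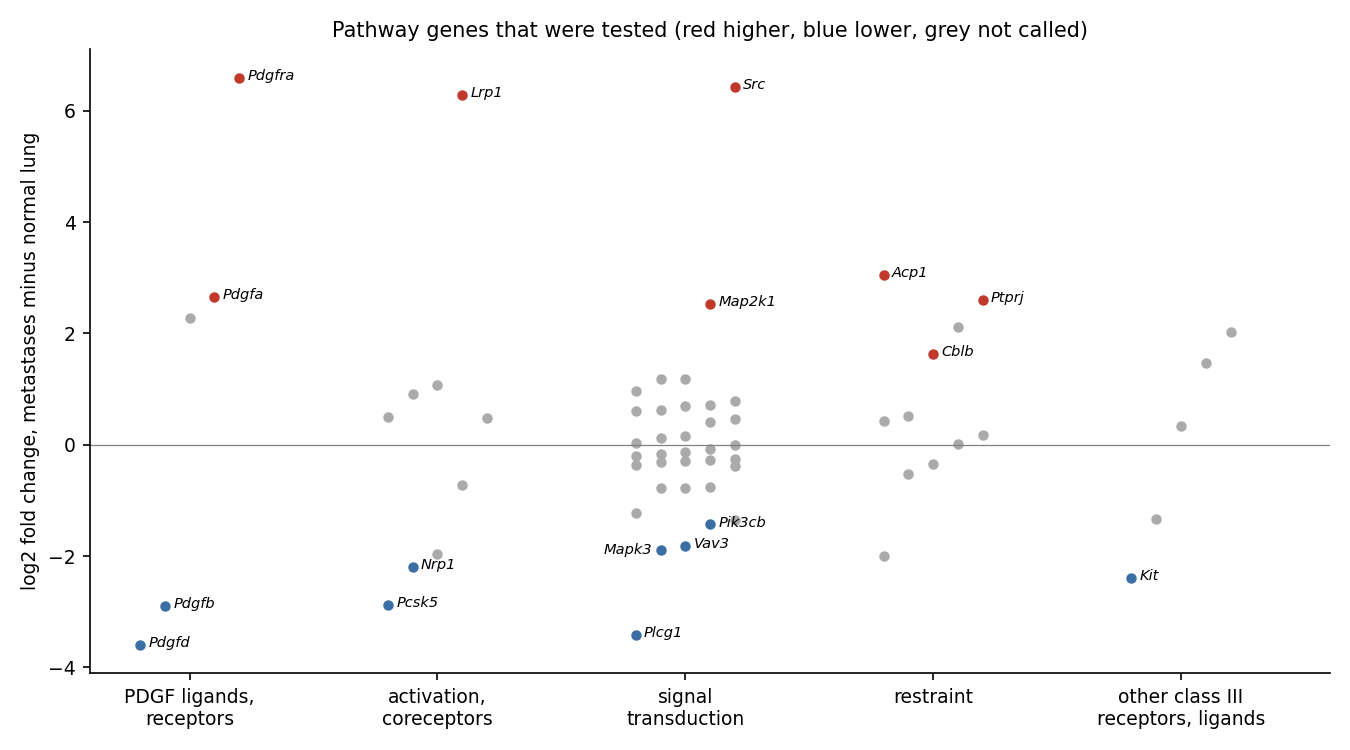
Log2 fold change (metastases minus normal lung, edgeR) of the tested genes among the PDGF ligands and receptors and in 4 lists of related genes, with called genes in red (higher) or blue (lower) and named, and the others in grey. Pdgfra, Lrp1 and Src lie above 6, and 29 of 35 signal transduction genes are grey, where 20.2% of all tested genes were called.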

How the data were processed

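Total RNA of 10 libraries of sorted CD31+/CD45- cells was amplified and sequenced in pairs by the submitters, per the labels' protocols. The submitters' processing notes list HTSeq 0.6.1, TopHat2 2.0.13, DESeq2 1.6.3 and Cufflinks 2.2.1, with builds mm10 and GRCm38. The annotation and the strand setting were not given in the sources used here. The authors deposited raw whole-number counts per gene for each library, and 1 table of FPKM values scaled by length and depth. The HTSeq summary rows were left out; reads on no feature were 55.4% to 73.7% of each file's total. Each FPKM column correlated best with the counts of its own library (Spearman across genes 0.956 to 0.963, 10 of 10).

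Counts were filtered with filterByExpr, scaled by TMM and fitted in edgeR 4.0.16 (R 4.3.3, quasi-likelihood F test, robust, two-sided, without covariates). P-values were Benjamini-Hochberg adjusted over the 11823 tested genes at a threshold of 0.05. Rose, fell, higher and lower mean that a gene passed it. CPM are on TMM-scaled libraries. The SE of a log2 fold change is its size divided by the root of F. The common biological coefficient of variation was 1.01. The fit was tested on simulated data. Exact permutation tests used log2(CPM + 0.5). Correlations used log2 CPM with a prior count of 2. Positions are from GENCODE M21 (GRCm38), and promoter windows from RefSeq (GRCm38.p6), which held 4 of the 6 genes; windows overlapping exons were shortened.

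The genes and lists were chosen with earlier results of these data known. Named were all 6 PDGF genes, the 2 largest called changes each way per list, the 2 most abundant genes of marker lists and of lists without a call, and the 3 most similar genes per PDGF gene. Alternatives were DESeq2 1.42.0, other scalings and filters, limma 3.58.1 on FPKM with pseudocounts of 1 and 0.1, a threshold of 0.01, a replicate block, the library sets, other pseudocounts and list summaries, and leaving out libraries; list counts under these settings and the relative levels by library set or over tested list genes were added after seeing the data. Python 3.11.15 and matplotlib 3.10.9 drew the figures.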

Additional observations from a re-analysis of the deposited data

Results flagged for a closer look

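In 36 groups of 5 values (each PDGF gene by group, as CPM, as FPKM and relative to its cell type list), 3 held 1 library far from the others, and chance gives about 1 in 20. For Pdgfc in normal lung, library 5 alone was above 0, at 0.054 CPM from 2 counts. The Pdgfc level of metastasis library 4 was 0.643 FPKM, far above the other metastasis libraries on that scale, although library 5 had slightly more counts (77 against 72). For Pdgfa relative to the pan-endothelial genes, metastasis library 1 was the lowest at -2.25, well under the 0.21 to 1.18 of the other metastasis libraries, and still above every normal lung library. That library also had the highest pan-endothelial level of the metastases, 39.1% of the normal mean.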

How the results depend on the processing

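The direction of Pdgfa, Pdgfb, Pdgfd, Pdgfra and Pdgfrb was the same in every setting run. Leaving out 1 library at a time gave log2 fold changes of 2.36 to 2.99 for Pdgfa (edgeR adjusted p at most 0.012), -3.39 to -2.64 for Pdgfb (at most 0.0192), -4.15 to -3.19 for Pdgfd (at most 0.0163), 6.27 to 6.84 for Pdgfra (at most 6.41e-05) and 1.93 to 3.87 for Pdgfrb (0.0834 to 0.388). In libraries 1 and 2 alone, 2 against 2, the calls of Pdgfa (2.26, adjusted p = 0.241), Pdgfb (-2.92, adjusted p = 0.0867) and Pdgfd (-2.60, adjusted p = 0.308) were lost. With pan-endothelial scaling, Pdgfb (-0.076) and Pdgfd (-1.12) lost their calls and Pdgfrb gained a call (5.19, edgeR adjusted p = 0.00414). In that setting 7253 of the 11823 tested genes were called higher. The level of Pdgfb relative to the pan-endothelial list changed sign without metastasis library 1 (0.020) and in libraries 3 to 5 alone (0.15), and over all single omissions it lay between -0.67 and 0.020.

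The genes called higher and lower were 2380 and 1661 with DESeq2, 7253 and 16 with pan-endothelial scaling, 869 and 453 at an adjusted p of 0.01, 487 and 201 in libraries 1 and 2 alone, and 1137 and 527 without metastasis libraries 4 and 5, against 1420 and 972. Single omissions gave 1302 to 1440 and 792 to 1114. The share of calls that were higher was 59.4%, and 99.8% with pan-endothelial scaling. Scaling by library totals moved the median log2 fold change of all tested genes to 0.32. Limma on log2(FPKM + 1) gave 3.43 for Pdgfra against 6.60, a pseudocount above its normal lung level. The cause of the other changes was not tested. Pdgfc did not pass the filter on low counts and has no edgeR test.

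The replicate numbers are shared between groups in the labels, but same-numbered libraries deviated together only weakly (r from 0.000682 to 0.142, the highest with their own number for replicates 2, 3 and 4 only), so they were not treated as pairs. A fit with the replicate number as a block gave log2 fold changes of 2.69 (edgeR adjusted p = 0.000662) for Pdgfa, -3.01 (0.000976) for Pdgfb, -3.73 (0.00109) for Pdgfd, 6.40 (4.25e-08) for Pdgfra and 4.05 (0.0701) for Pdgfrb, with 1435 genes higher and 1180 lower.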

Other observations

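The nearest protein-coding genes of the PDGF genes were examined, 3 on each side. On one side of Pdgfd, 861319 bases away, Casp1, the gene of an inflammatory caspase, rose from 9.09 to 72.8 CPM (log2 fold change 3.0, edgeR adjusted p = 0.0147). Casp4 (0.57, edgeR adjusted p = 0.626) and Casp12 (-1.33, adjusted p = 0.311), on the same side, did not pass. At 718561 bases from Pdgfc, Ctso, a cathepsin gene, fell from 129 to 29.8 CPM (-2.11, edgeR adjusted p = 0.0194). Beside Pdgfa, Sun1 had 0.031 (edgeR adjusted p = 0.977), and beside Pdgfb, Cbx7 had -0.26 (adjusted p = 0.881). These genes were named after their values were seen. Of all tested neighbours, only Casp1, Ctso, Kit and Kdr passed, where 20.2% of all tested genes were called. No trait of the loci is read from these calls.

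Within groups, as deviations from the group means, the genes closest to each PDGF gene were others than those over all libraries, except for Amotl2 with Pdgfb (r = 0.9) and Foxn3 with Pdgfd (r = 0.881). Msh3, a mismatch repair gene, led for Pdgfa (r = 0.956), Ucp2, a mitochondrial carrier gene, for Pdgfb (0.916), Zfp664 for Pdgfd (0.936), Zfp938 for Pdgfra (0.978) and Vsnl1 for Pdgfrb (0.941). Each r rests on the same 10 libraries and was the highest among the tested genes without predicted-gene symbols, and is given as a description. Between the groups these 5 leading genes had log2 fold changes of 0.67, -1.32, 0.053, -0.42 and -0.93.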
